A study of Mus musculus with 4 samples.

Results

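The genes examined were 7 genes of MHC class II antigen presentation, H2-Aa, H2-Ab1, H2-Eb1, Cd74, Ciita, H2-DMa and H2-DMb1, out of 27376 gene names on the array. They were taken by name, as every non-control probe that the array files assign to one of these symbols, which gave 12 probes. All 12 were well above background on all 4 arrays, and none was saturated or flagged as an outlier. RNA came from the left ventricle of mice 7 days after myocardial infarction (MI), produced by permanently tying off the left anterior descending (LAD) artery, and was hybridised to one-colour Agilent Whole Mouse Genome arrays. The wild-type (WT) group had 2 arrays, called WT 2 and WT 3 after the sample titles, and the group lacking the histone demethylase KDM5B (KO) had 2, called KO 2 and KO 3. KO mice carried a CRISPR/Cas9 deletion in the JmjC region of Kdm5b with a frameshift, in every cell of the animal, on a C57BL/6 background. Per the study the mice were 8 to 10 weeks old when operated and the WT mice were littermates. Every mouse in both groups had been infarcted, so no uninjured ventricle enters these values. Nothing states that the arrays of a group are separate animals, so p-values measure only the spread between these samples.

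MHC class II molecules carry peptides from engulfed protein to the cell surface, where CD4+ T cells read them. H2-Aa and H2-Ab1 encode the alpha and beta chains of I-A, and H2-Eb1 encodes the beta chain of I-E. Cd74 is the invariant chain that fills the groove until the endosome is reached, and H2-DMa with H2-DMb1 forms the H2-DM exchanger that helps load the peptide. Ciita is the transactivator that switches the whole set on, and it is itself induced by interferon gamma. In the heart these genes are known mainly from dendritic cells, B cells and part of the macrophages, which enter the ventricle in number after infarction. In whole tissue, fewer cells of a type and less RNA per cell cannot be told apart.

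The feature that these promoters are known for is a pair of short boxes, X and Y, at a fixed spacing, on which the RFX and NF-Y factors assemble and to which CIITA is recruited. RefSeq promoter windows (assembly GRCm38.p6, 250 bases before to 50 after each gene start) were searched on both strands for the letters GNAAC followed on the same strand by ATTGG after 20 to 34 bases. A window was given for 4 of the 7 members. H2-Aa, H2-Eb1 and H2-DMb1 held the pair, and neither window of H2-DMa did. The pair stood in 2.50% of all 32851 windows, and in 2.85% of the 27025 genes with a window. Of the class II genes outside the members, H2-Oa, H2-Ob and H2-Eb2 held it and H2-DMb2 did not. The stretches below are printed to show the pair and its spacing, with the letters of both boxes in capitals. They lie at chr17:34287857-34287914 on the minus strand for H2-Aa, and on the plus strand at chr17:34305766-34305822 for H2-Eb1, chr17:34153087-34153144 for H2-DMb1 and chr17:34092293-34092350 for H2-Oa.
H2-Aa: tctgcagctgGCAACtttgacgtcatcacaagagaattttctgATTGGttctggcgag
H2-Eb1: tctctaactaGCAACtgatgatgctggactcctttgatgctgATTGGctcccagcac
H2-DMb1: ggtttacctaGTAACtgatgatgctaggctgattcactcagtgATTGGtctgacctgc
H2-Oa: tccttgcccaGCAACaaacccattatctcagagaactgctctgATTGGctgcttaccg

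Between the boxes lay 28 bases in H2-Aa, H2-DMb1 and H2-Oa, 27 in H2-Eb1 and H2-Eb2, and 25 in H2-Ob. Counted from the gene start, the X box letters began at base -81 in H2-Aa, -91 in H2-Eb1, -94 in H2-DMb1 and -76 in H2-Oa. A match is a description of letters and not evidence of binding.

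**Figure D1:**
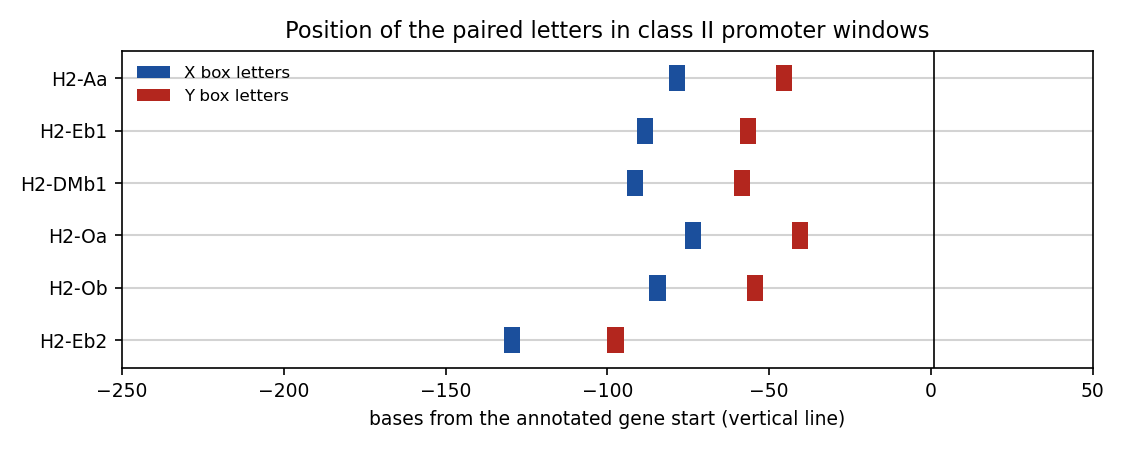
Position of the X box letters (blue) and Y box letters (red) in the promoter windows of the 6 class II genes that held the pair; the horizontal axis is the distance in bases from the annotated gene start, marked by the vertical line. The pair begins between bases -94 and -76 in all but H2-Eb2, where it begins at -132.

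The arrays were set against their labels before any member was read. All 4 samples are labelled male. Xist, the transcript of the inactive X chromosome in females, had log2 signals of 14.13 (WT 2) and 13.24 (KO 2) against 1.92 (WT 3) and 2.01 (KO 3), while the Y-linked Ddx3y gave 2.12 and 1.63 on the number 2 arrays against 11.88 and 11.44 on the number 3 arrays. The libraries labelled WT 2 and KO 2 therefore go against their sex label, with the same pattern on both, and every member is given below for both groups and within each number. Kdm5b, the targeted gene, had scaled signals of -0.87 and -1.81 on WT 2 and WT 3 and of -2.40 and -2.26 on KO 2 and KO 3. This probe lies at chr1:136485365-136485424 (mm9), and whether it falls in the deleted part was not determined. Scaled signal here and below is the log2 processed signal minus the 75th percentile of the same array, whose linear value ran from 608 to 976 over the arrays. On each array 68.1% to 72.0% of probes passed the well-above-background flag. Atrial Myl7 and Myl4 were at 6.39 and 5.46 on KO 2 and between -0.70 and 0.23 on the other arrays. Among the 6 tested atrial markers the median at number 2 was 3.57, and 1 was lower. Nppa, the brightest, was at 9.24 on KO 2 and between 8.54 and 8.81 on the other arrays. Nr2f2 was lowest on KO 2, at 0.90. The part of these differences in any result was not tested. All arrays lay on 1 slide with WT at positions 1 and 2 and KO at 3 and 4, so slide position and genotype cannot be told apart.

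The members were lower on average in KO than in WT, by between 0.63 and 1.26 log2 units. KO 2 was the lowest array for all 7, below WT 3 as well as WT 2, and WT 2 was the highest. Compared within numbers, the difference lay almost wholly at number 2. At number 2 all 7 members were lower on the KO array by over 2-fold, from 2.63-fold for H2-DMa to 6.15-fold for Ciita. At number 3 none was, with KO 3 at between 0.787 and 1.27 times WT 3. No member passed the test, which was limma across all probes with Benjamini-Hochberg adjustment and counted a gene as called when its adjusted p was under 0.05 with a change of over 2-fold. The adjusted p was 0.9999 for each, and unadjusted p ran from 0.0848 to 0.332. The background for that call was 0% of 15013 genes tested, and 410 of 28305 probes had an unadjusted p under 0.05. With 2 arrays against 2 an exact two-sided permutation test cannot go below 0.33.

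**Figure D2:**
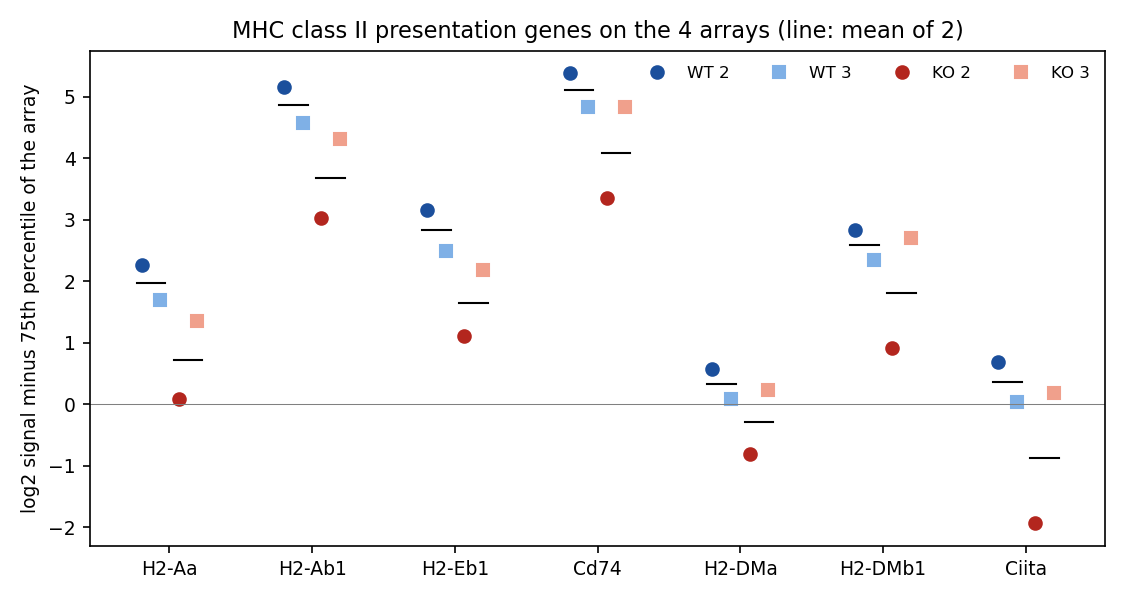
Scaled log2 signal of each member on the 4 arrays (vertical axis, log2 processed signal minus the 75th percentile of the array), with blue for WT, red for KO, circles for number 2, squares for number 3 and a line at each mean of 2. WT 2 is highest and KO 2 lowest for all 7 genes, and KO 3 lies near WT 3. Levels are not compared between genes, since each comes from its own probe.

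The chains that hold the peptide were read first. H2-Aa had scaled signals of 2.26 (WT 2), 1.69 (WT 3), 0.09 (KO 2) and 1.35 (KO 3), at chr17:34421285-34421344 (mm9, minus strand). The means were 1.98 ± 0.40 (SD, n = 2) for WT and 0.72 ± 0.89 for KO. The groups did not overlap, and KO 2 was far below the other 3 arrays. The difference was -1.26 (SE 0.54, 95% interval -2.82 to 0.29), or 4.53-fold lower at number 2 and 0.787 times WT at number 3.

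H2-Ab1, the partner chain of H2-Aa, had scaled signals of 5.15 (WT 2), 4.58 (WT 3), 3.04 (KO 2) and 4.32 (KO 3). Its brightest probe lies at chr17:34406059-34406118 (mm9, plus strand). Here too the groups did not overlap, and the gap between them was set by KO 3 and WT 3, 0.26 apart. The difference of means was -1.19 (SE 0.55). One of its other 3 probes was printed in 10 spots on each array and gave a difference of -2.40 at number 2 and -0.31 at number 3. The SD over those spots was between 0.027 and 0.041 on each array, so the difference at number 3 was larger than the spread between spots of one array. That spread is technical and says nothing of the spread between samples.

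H2-Eb1, the beta chain of I-E, had scaled signals of 3.16 (WT 2), 2.49 (WT 3), 1.11 (KO 2) and 2.19 (KO 3), from a probe annotated across chr17:34452050-34452511 (mm9). As for both I-A chains, the KO arrays lay below the WT arrays without overlap. The difference was -1.18 (SE 0.51), with an unadjusted p from the limma fit of 0.0848, the lowest of the 7. Its partner H2-Ea, which C57BL/6 mice are known to carry in a defective form, was not above background on any array.

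Cd74, the invariant chain, had scaled signals of 5.38 (WT 2), 4.83 (WT 3), 3.35 (KO 2) and 4.84 (KO 3). WT 3 and KO 3 were thus level, 0.003 apart, and KO 2 stood 1.49 below KO 3. The difference of means was -1.02 (SE 0.61), with means of 5.11 ± 0.39 for WT and 4.09 ± 1.05 for KO. The sign of the small gap at number 3 turned with the scaling, to between -0.11 and -0.004 under normexp, quantile normalization, a median shift and the authors' values. Its probe lies at chr18:60972075-60972132 (mm9).

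H2-DMa, the alpha chain of the peptide exchanger, had scaled signals of 0.58 (WT 2), 0.09 (WT 3), -0.81 (KO 2) and 0.23 (KO 3). KO 3 lay between the WT arrays, so the groups overlapped. The difference of -0.63 (SE 0.47) was the smallest of the members, as was the 2.63-fold difference at number 2. Its probe is annotated across chr17:34274300-34274863 (mm9).

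H2-DMb1, the beta chain of the exchanger, had scaled signals of 2.83 (WT 2), 2.35 (WT 3), 0.92 (KO 2) and 2.70 (KO 3). The groups overlapped, and KO 3 was 1.27 times WT 3, the highest of these ratios among the members. The difference of means was -0.78 (SE 0.70, 95% interval -2.78 to 1.22). The brighter of its 2 probes lies at chr17:34297109-34297168 (mm9). H2-DMb2 is a close copy of H2-DMb1, and one of the H2-DMb1 probes is annotated to both, so the split of signal between them is uncertain.

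Ciita, the transactivator of the other 6, had scaled signals of 0.69 (WT 2), 0.04 (WT 3), -1.93 (KO 2) and 0.19 (KO 3). KO 3 lay between the WT arrays here too. The difference at number 2, 6.15-fold lower, was the largest of the 7 genes, and at number 3 the KO array was at 1.11 times WT. The difference of means was -1.24 (SE 0.83), and that error was the widest of the members. The probe lies at chr16:10526303-10526362 (mm9). Positions of probes within exons were not determined, since no annotation of that build was used.

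**Figure D3:**
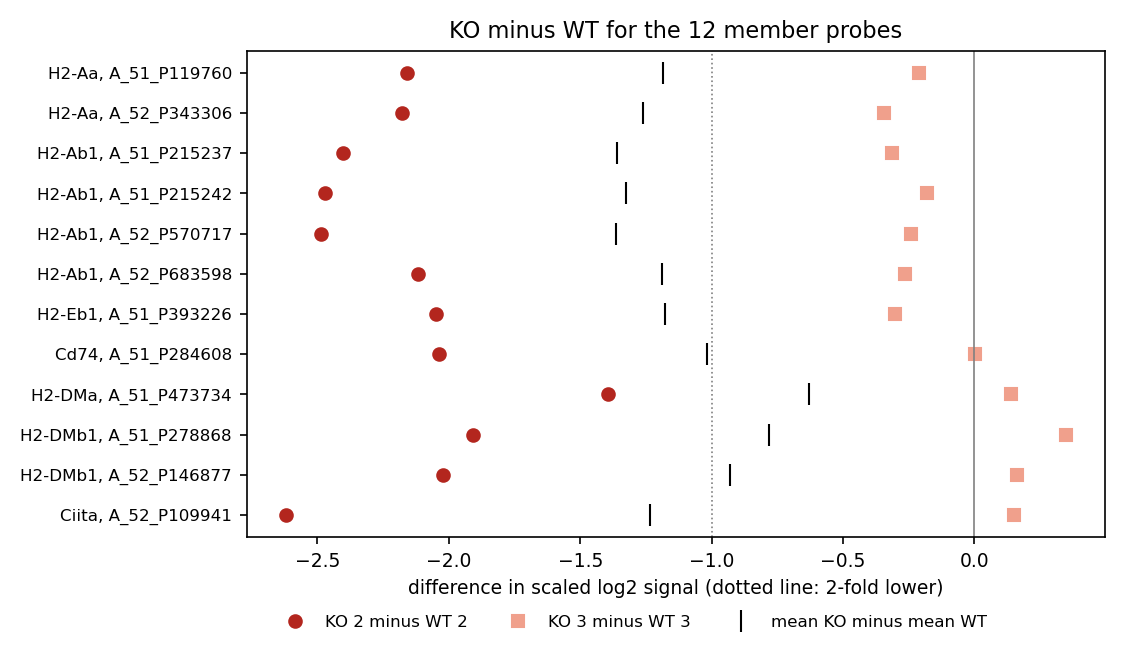
KO minus WT for the 12 member probes in scaled log2 signal (horizontal axis), with red circles for KO 2 minus WT 2, pale squares for KO 3 minus WT 3, a black bar for the difference of group means and a dotted line where KO is 2-fold lower. At number 2 every probe lies between -2.62 and -1.39, and at number 3 the 7 chain probes lie below 0 and the 5 others above it.

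Read over the members as counts, the averages were lower in KO by over 2-fold for 5 of 7 genes, against 2.34% of all genes tested. Lower signal by over 2-fold at number 2 was seen in 7 of 7, against 9.39% of all genes. At number 3 it was seen in 0 of 7, against 1.77%. The KO arrays were both below the WT arrays for 3 of 7, against 8.9%, and these 3 were the chain genes H2-Aa, H2-Ab1 and H2-Eb1 (4 of 7, with Cd74, under the 4 other scalings). WT 2 was the highest and KO 2 the lowest array for 7 of 7, against 4.35%. The median difference of the members was -1.18, with -2.05 at number 2 and 0.003 at number 3, and the medians over all genes tested were 0.04, 0.04 and 0.03. Without KO 2 the median of the members was -0.27 and 0 of 7 were lower by over 2-fold, and without WT 2 the median was -0.84 and again 0 of 7 were.

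The members split by role at number 3. All 7 probes of the I-A and I-E chains were lower on KO 3 than on WT 3, by -0.35 to -0.18. All 5 probes of Cd74, H2-DMa, H2-DMb1 and Ciita were higher, by 0.003 to 0.35, with Cd74 turning below 0 under other scalings as given above. These are values of 1 array against 1 and carry no test. Several probes of a gene share the same RNA and are not replicates.

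The members differed between arrays of one genotype as well. WT 2 exceeded WT 3 by 0.48 to 0.67 in all 7, and KO 2 lay 1.04 to 2.12 below KO 3. The gap between the KO arrays was larger than the difference of means for every member but H2-Eb1. WT 2 stayed above WT 3 for 7 of 7 members under all 5 scalings run.

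Class II genes outside the members were dim. H2-Oa, part of the H2-DO brake on peptide exchange, had scaled signals of -1.44 (WT 2), -1.74 (WT 3), -4.45 (KO 2) and -1.09 (KO 3), so KO 3 was the highest array and KO 2 the lowest. H2-DMb2 gave -4.20, -4.95 and -3.50 on WT 2, WT 3 and KO 3 and was not well above background on KO 2. H2-Eb2 was not above background on any array, and H2-Ob, the partner of H2-Oa, was above it only on KO 3, with 1 of its 2 probes. Of the genes with the promoter letters printed or named above, H2-Ob and H2-Eb2 were thus hardly detected in these ventricles.

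The transcription complex that CIITA joins did not have the array order of the members. None of its 7 genes, Rfx5, Rfxap, Rfxank, Nfya, Nfyb, Nfyc and Creb1, was called or differed by over 2-fold, and none had WT 2 highest with KO 2 lowest. At number 2 they ran from -0.67 for Rfx5, the DNA-binding RFX subunit, to 0.78 for Rfxank, its ankyrin-repeat partner. Their median difference was 0.05, with -0.06 at number 2 and 0.16 at number 3.

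Of 11 genes from interferon gamma to Ciita, none was called and 8 were lower on average in KO. The members' order, with WT 2 highest and KO 2 lowest, was seen in 3, against 4.35% of all genes. These were Ifng, the cytokine itself, Irf1, a factor that acts on Ciita, and Socs1, an inhibitor induced by the same signal. Ifng had scaled signals of -2.40 on WT 2, -4.44 on WT 3 and -4.62 on KO 3, and on KO 2 it was not well above background. Socs1 had 0.75, -0.06, -0.84 and -0.26 on WT 2, WT 3, KO 2 and KO 3, with no overlap between groups. Irf1 had 3.55, 2.94, 2.83 and 2.95, so WT 3 and KO 3 were level and KO 2 lay just below them. The receptor chains, Ifngr1 and Ifngr2, differed by -0.12 and 0.38 on average. Irf8 and Spi1, factors of the myeloid lineage, were lower at number 2, by 1.33 and 1.67, but 0.16 and 0.56 higher at number 3. Jak1, Jak2 and Socs3 differed on average by 0.01, -0.49 and 0.28. Both KO arrays were below both WT arrays for 3 of the 11, Ifng, Jak2 and Socs1, against 8.9% of all genes. They were both above for 1, Socs3, against 1996 of 15013 genes.

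The proteins that prepare the peptide and the invariant chain for loading differed from the members in the order of the WT arrays. All 8 genes of that list were lower on WT 2 than on WT 3, by 0.03 to 0.80, where the 7 members were all higher, and this held in sign under all 5 scalings. Ctss, the cathepsin that trims the invariant chain, had 6.75 (WT 2), 7.51 (WT 3), 4.87 (KO 2) and 7.98 (KO 3). Ifi30, a thiol reductase of the endosome, had 1.83, 2.11, 0.21 and 2.52, and Marchf1, a ligase that removes class II from the surface, had 0.50, 1.01, -0.999 and 1.22. These 3 were lower by over 2-fold at number 2, and all 3 were highest on KO 3. Lgmn, Ctsb, Ctsl and Ctsd, proteases with wider expression, differed at number 2 by between -0.68 and -0.20 and at number 3 by 0.38 to 0.44. Marchf8 was 0.09 higher at both numbers. The list as a whole had a median difference of -0.07 and 0 genes called.

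Class I presentation, the pathway for peptides made inside the cell, had smaller differences than class II. Of 12 tested genes 0 were called and 0 were lower by over 2-fold on average or within a number. WT 2 was highest and KO 2 lowest for 5 of the 12, against 4.35% of all genes. Both KO arrays were below both WT arrays for 4, against 8.9%. B2m, the light chain, differed by -0.42 at number 2 and 0.07 at number 3, and H2-K1, a heavy chain, by -0.95 and 0.11. Psme2 and Psmb10, of the proteasome, differed by 0.11 and 0.23 at number 2. The median of the list was -0.41 at number 2, where that of the class II members was -2.05, and 0.06 at number 3. The gap between the lists was not tested.

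**Figure D4:**
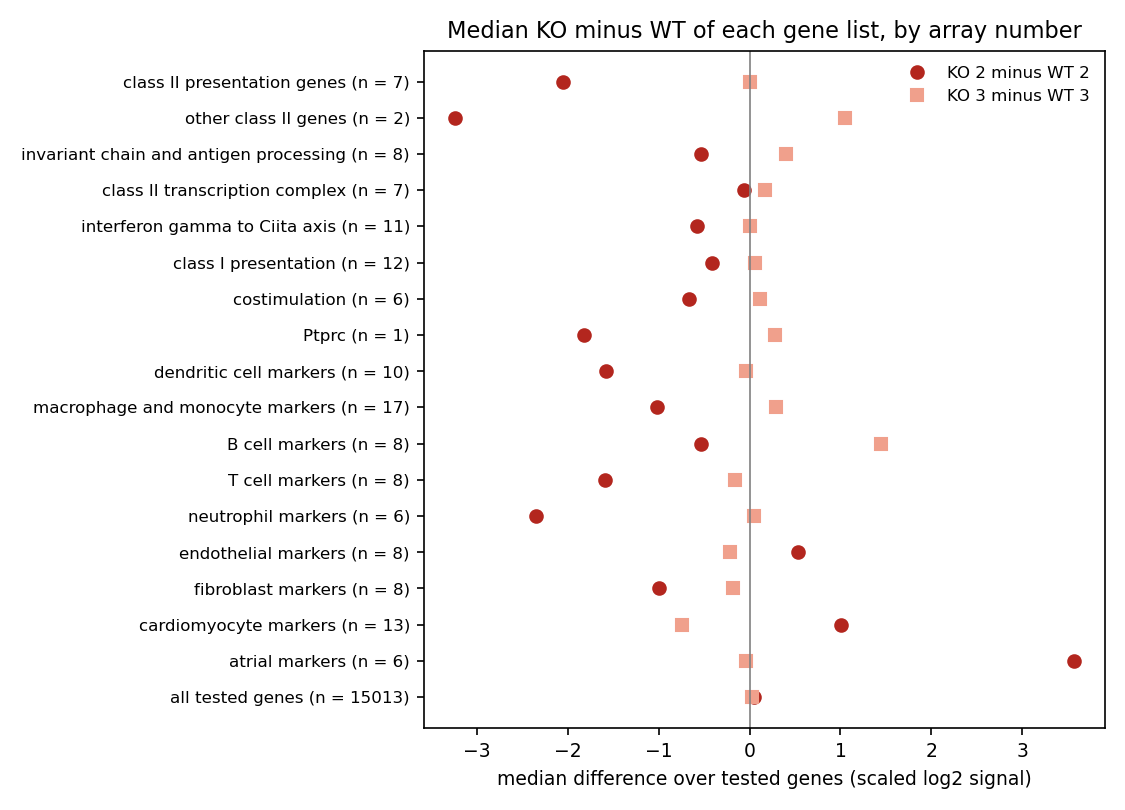
Median KO minus WT of each gene list in scaled log2 signal (horizontal axis), by array number, with red circles for number 2, pale squares for number 3 and the number of tested genes in brackets. The class II presentation genes lie at -2.05 at number 2 and at 0.003 at number 3, beside 0.04 and 0.03 for all tested genes.

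Most markers of cells that carry class II were lower at number 2, as the members were, but the lower values were not limited to those cells. Neutrophil markers were lower there in 6 of 6, with a median of -2.35. T cell markers were lower in 6 of 8, with a median of -1.59, and fibroblast markers in 8 of 8, with -0.99. Of endothelial markers 0 of 8 were lower at number 2, and of cardiomyocyte markers 0 of 13. Ptprc (CD45, on all leukocytes) had 2.53 (WT 2), 2.97 (WT 3), 0.72 (KO 2) and 3.25 (KO 3). Of 10 tested dendritic cell markers 8 were lower at number 2, with a median of -1.58, and the median at number 3 was -0.04. WT 2 was highest and KO 2 lowest for 5 of the 10, against 4.35% of all genes. Both KO arrays were below both WT arrays for 6, against 8.9%. Itgax (CD11c) was lower by 2.49 at number 2 but 0.64 higher at number 3. Clec10a was lower by 1.57 and 0.49, Batf3 by 1.60 and 0.02, and Naaa by 1.05 and 0.03. Xcr1 and Zbtb46 were higher at number 2, by 0.32 and 0.14, and differed at number 3 by 0.29 and -0.24. Of 17 macrophage and monocyte markers 13 were lower at number 2, and the medians were -1.02 and 0.30. Among them Lyz2 differed by -0.68 and 0.16, C1qc by -1.02 and 0.30 and C1qa by -1.11 and 0.26. Ly6c2 went from 0.72 at number 2 to -0.64 at number 3. Cd163, Lyve1 and Timd4 were also higher at number 2, by 1.59, 1.34 and 1.26. At number 3 these differed by 0.50, -0.75 and 3.26, and Timd4 was not well above background on WT 3. The summed macrophage and monocyte signal was 8.70 and 8.85 on the WT arrays and 8.29 and 8.97 on the KO arrays, number 2 first. The summed dendritic cell signal was 3.37 and 3.11 against 2.06 and 3.16. Each sum adds linear signal over unlike probes, so bright probes weigh most. In the macrophage and monocyte sum at number 2 these were Lyz2 and Ly6c2. Lyz2 was at 7.94 on WT 2 and 7.27 on KO 2, and Ly6c2 at 6.08 and 6.80. Cd209a was the listed dendritic cell marker not tested, being above background on no array. No gene of these lists was called, and the part of these cells in the members' values was not tested.

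B cell markers were higher in KO at number 3, and T cell markers were not. Of 8 tested B cell markers 6 were lower at number 2 and 0 at number 3, where the median was 1.45 higher in KO. Cd79b, of the B cell receptor, had 0.16 (WT 2), 0.58 (WT 3), -1.10 (KO 2) and 2.11 (KO 3), and Ms4a1 (CD20) was higher by 2.67 at number 3. Bank1 was higher there by 1.51. None of the 8 had the members' order of arrays. Of 8 tested T cell markers 4 had it, against 4.35% of all genes. Both KO arrays were below both WT arrays for 5 of the 8, against 8.9%. They were both above for 1, Cd4, against 1996 of 15013 genes. At number 2, 6 T cell markers were lower, with a median of -1.59. Cd28 and Cd4 were higher there, by 0.37 and 0.18. Cd3d, of the T cell receptor complex, had -0.41 (WT 2), -0.97 (WT 3), -4.57 (KO 2) and -1.16 (KO 3), and Lck and Cd247 were lower by 2.88 and 1.48 at number 2. Cd8a was not well above background on KO 2. The summed T cell signal ran from -1.19 on KO 2 to 0.97 on WT 2 and the summed B cell signal from -0.15 on KO 2 to 2.97 on KO 3, both on the scaled log2 scale. The B cell markers Pax5 and Blk were above background on no array.

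Between the WT arrays, 1 against 1 and so with no test, all 7 members were higher on WT 2 than on WT 3, with a median of 0.57, while Ptprc was 0.44 lower, 11 of 17 macrophage and monocyte markers were lower, with a median of -0.40, and 7 of 8 T cell markers were higher, with a median of 0.30 (6 of 8 under quantile normalization, a median shift and the authors' values, where 12 of 17 macrophage and monocyte markers were lower). Cardiomyocyte markers were higher on WT 2 in 13 of 13, with a median of 1.30, and on KO 2 than on KO 3 in 13 of 13, with a median of 3.12. Mb, Actc1, Tnnt2 and Myl3 differed at number 2 by 0.73, 0.71, 0.60 and 1.09 and at number 3 by -0.66, -0.52, -0.10 and -0.65. Cardiomyocyte markers and the members were thus both higher on WT 2 than on WT 3, but on KO 2 the former were higher and the latter lower than on KO 3, and the part of one in the other was not tested.

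**Figure D5:**
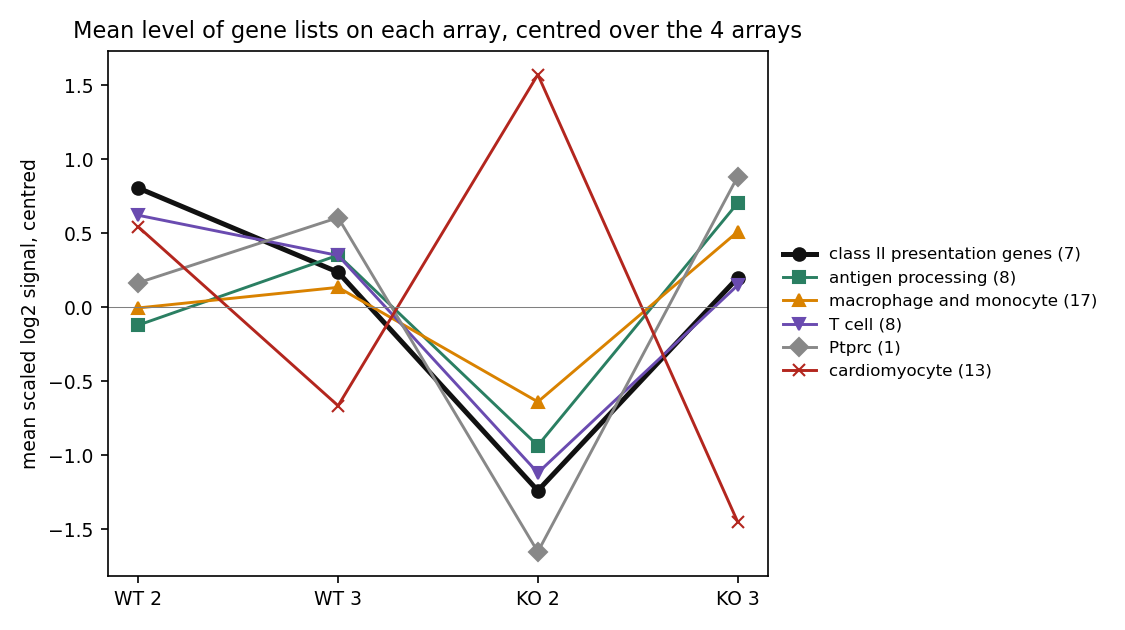
Mean scaled log2 signal of 5 gene lists and of Ptprc on each array, centred on its own mean over the 4 arrays (vertical axis), with the number of tested genes in brackets; lines join arrays only to guide the eye. The class II presentation genes (black) are highest on WT 2, at 0.80, and lowest on KO 2, at -1.24, while antigen processing, macrophage and Ptprc values are highest on KO 3.

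Of 14329 other genes well above background on all arrays, 29 had centred values within a root mean square distance of 0.2 from the members' mean profile. The 5 nearest were Cd80, a costimulatory ligand of antigen-presenting cells, at 0.068, Naaladl2 at 0.090, Rnase6, a secreted ribonuclease, at 0.133, Zap70, the kinase behind the T cell receptor, at 0.133 and Scara3, of the scavenger receptor family, at 0.134. Cd80 had scaled signals of -2.38 (WT 2), -3.02 (WT 3), -4.31 (KO 2) and -2.93 (KO 3). Likeness over 4 arrays carries no p. The other costimulation genes with the highest signal, Cd83, Icosl, Cd274 and Cd40, differed at number 2 by -1.03, -0.42, -0.56 and -0.57. At number 3 they differed by -0.31, 0.17, 0.14 and 0.54.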

How the data were processed

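Gene expression was measured in 4 left ventricle samples, 2 WT and 2 KO, and groups and array numbers were taken from the sample titles. The authors deposited one-colour intensity values from Agilent Feature Extraction (version 10.7 per the submitters' processing notes, 10.7.3.1 per the file headers, build mm9), already background-subtracted and detrended, and the well-above-background, saturation and outlier flags are 0 or 1 values, other than intensities, that were deposited with them. They also deposited log2 values made with GeneSpring, whose normalization is not stated. About 99.9% of these on each array lay within 0.01 of quantile-normalized log2 signals, with column medians of 6.78.

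From these, log2 processed signals were shifted by each array's 75th percentile, spots of a probe were averaged, and control and outlier spots were left out. A probe was tested when both arrays of 1 or both groups were well above background (28305 of 41174 probes; 12863 were too dim and 6 lacked a value). The comparison of KO and WT used limma 3.58.1 (R 4.3.3, lmFit and eBayes), adjusted by Benjamini-Hochberg over all tested probes. It was also run on simulated arrays whose changes were larger, and whose spread was smaller, than those of the members. That run does not show whether changes like theirs could be called. A gene was read from its brightest tested probe. Names came from the files and, where older, from RefSeq symbols (31437 probes direct, 2200 by an older symbol, 7537 with neither). H2-D1, Trac and Ly6g were not matched.

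The members and lists were chosen with earlier results of these data known. Named were the members and all genes of the class II, processing, transcription complex and interferon lists. Up to 4 genes of highest mean level in each other list were named too. Cd28, Cd4, Xcr1, Zbtb46, Cd163, Lyve1 and Timd4, and the 5 genes nearest in profile, were added. Values of some listed genes are not reported here. Alternatives were normexp (offset 50), quantile normalization, a median shift, other filters on dim probes, the authors' values, the mean of all probes, the array number as a block, the methods' t-test and leaving out each array. A slide block could not be fitted with 1 slide. The number of arrays limits the precision.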

Additional observations from a re-analysis of the deposited data

Results flagged for a closer look

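For 4 of the 7 members the KO array was below the WT array at number 2 and above it at number 3, with 1 array of each genotype at each number. The KO minus WT values were -2.04 and 0.00282 for Cd74, -2.62 and 0.15 for Ciita, -1.39 and 0.14 for H2-DMa, and -1.91 and 0.35 for H2-DMb1, at number 2 and number 3 in that order. The difference between the numbers was not tested. The libraries labelled WT 2 and KO 2 also went against their sex label, as given by Xist and Ddx3y. For Cd74 the value at number 3 was below 0 under the 4 other scalings, so its opposite signs do not hold there.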

How the results depend on the processing

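No member and no probe was called by limma under any alternative run, with lowest adjusted p over probes from 0.128 without KO 3 to 0.9999. The methods' t-test gave 88 probes past an unadjusted p under 0.05 and a fold change over 2 but 0 after adjustment, and 0 members either way. With 1 array left out, and the spread of the lone array taken from the other group, the median difference of the members ran from -1.76 to -0.27 and the members lower by over 2-fold from 0 to 7. In 27 of 28 such member values the sign was kept, and H2-DMb1, which ran from -1.67 to 0.11, turned only without KO 2. With all 4 arrays the sign was kept in 56 of 56, of which 25 were identical to the reported value because the setting cannot move it, and both KO arrays were below both WT arrays for 3 or 4 members. Shifting by the median moved the median of all genes at number 2 to 0.11, and normexp to 0.10. Deviations of same-numbered arrays correlated at 0.57, and they shared the Xist and Ddx3y pattern, but with 2 pairs and no label that ties them they were not treated as paired. The replicate block left 0 probes and 0 members called, with 602 probes at an unadjusted p under 0.05 against 410 without it. Counts of members lower by over 2-fold and of members whose groups did not overlap were followed across settings after seeing the data.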

Other observations

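Other cell type markers are given as values. Neutrophil markers were lower at number 2 in 6 of 6 tested genes with a median of -2.35, and their median at number 3 was 0.05. S100a9, S100a8, Csf3r and Retnlg, all known from neutrophils, were lower at number 2 by 2.42, 2.53, 2.28 and 2.02. Endothelial markers were higher at number 2 in 8 of 8 with a median of 0.53 and lower at number 3 in 7 of 8 with a median of -0.21. Fibroblast markers were lower at number 2 in 8 of 8 with a median of -0.99 and at number 3 in 5 of 8 with a median of -0.18. Dcn and Col3a1, matrix genes of fibroblasts, differed at number 2 by -0.33 and -0.28 and at number 3 by -0.07 and 0.07. Col1a1 and Postn differed by more at number 2, by -1.21 and -1.27, and by 0.17 and 0.28 at number 3. No gene of these lists was called.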
